A study of Mus musculus with 8 samples.

Results

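The genes described here are Trp53, which encodes the tumour suppressor p53, and 9 of its best known transcriptional targets, namely Cdkn1a, Mdm2, Ccng1, Bax, Phlda3, Sesn2, Fas, Trp53inp1 and Bbc3. They were taken by symbol from a table of 47729 genes, and all 10 were found and passed the filter on low values. RNA was measured in mouse liver duct cells as they were taken from the animal into organoid culture, where single duct cells grow in Matrigel into hollow epithelial structures. All 8 libraries came from adult male C57/B6 mice with healthy livers, and all cells had been sorted for EpCAM, a surface protein of bile duct epithelium. There were 2 libraries of freshly sorted cells, 2 of cells kept for 12 h in Matrigel with organoid medium, 1 of cells kept for 24 h and 1 titled 48h. A further 2 held organoids, taken at 6 days. The 48h-titled library is given as 24 h in its other labels and is kept apart here under its title. The labels name no genetic change or drug in any group, and do not say whether replicates were different mice, so each p-value reflects only how far these libraries differ, which may be technical.

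The p53 protein is a transcription factor that is made all the time and, in unstressed cells, broken down as fast as it is made. Its main destroyer is the ubiquitin ligase Mdm2, itself a p53 target, which closes a negative feedback loop. After DNA damage and other stresses p53 builds up, mostly through slower breakdown rather than more mRNA, and switches on genes for cell cycle arrest, for apoptosis, for DNA repair and for the control of metabolism. Many of these genes also answer to other signals, so the level of a target is not a direct readout of p53.

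Expression was given as RPKM, a read count scaled to gene length and library size, so levels may be compared between genes. The depth recovered from the values was 13833143 to 28468920 reads a library, and the fewest genes at 1 RPKM or more, 8814, were in the 24 h library, against 10605 to 11263 in the others. All 9 duct markers examined were at 1 RPKM or more in both fresh libraries, and 8 or 9 of them in each cultured one. Their summed level was 20444.5 and 23548.1 RPKM in fresh cells, 9765.8 and 14543.4 at 12 h and 14164.3 and 9558.0 in organoids. Spp1 alone made up 14186 and 17735 RPKM of the duct sums in fresh cells. The fresh libraries also held hepatocyte RNA. The summed level of 10 hepatocyte markers was 2981 and 3554 RPKM there, 455 and 459 at 12 h, 242 at 24 h, 238 in the 48h-titled library and 17.1 and 56.1 in the organoids. Of these sums Apoe alone held 1960 and 2515 RPKM in fresh cells, 392 and 394 at 12 h, and 0.744 and 5.53 in organoids. Among the immune markers, Cd3e and Nkg7 were listed at 0 in every library, and the summed immune level ran from 0.480 to 29.2 RPKM. In bulk RNA such as this, fewer cells of a type and less RNA per cell cannot be told apart.

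The p53 protein binds DNA at pairs of a 10-base consensus, each copy known as a half-site. RefSeq promoter windows on GRCm38.p6, from 250 bases before to 50 bases after a gene start, were present for 9 of the 10 genes, with 2 windows for Cdkn1a, 3 for Bbc3 and 1 for each of the others. A half-site without mismatch stood in a window of 5 of the 9 genes, namely Trp53, Mdm2, Cdkn1a, Ccng1 and Bax. Among all 32851 windows 8.36% held one, and among the 27025 genes with a window 9.55% did. The consensus is its own reverse complement, so both strands are read at once. A pair of half-sites at most 13 bases apart with at most 1 mismatch in all stood at 3 of the 9, Cdkn1a, Ccng1 and Bax, against 1.24% of genes and 1.09% of windows. The stretches of all 5 genes with a half-site are shown, including Mdm2 and Trp53, which hold no such pair. Matches to the half-site, and their partners in a pair, are in capitals, and each stretch runs 5′ to 3′ on the strand of the gene.
Ccng1: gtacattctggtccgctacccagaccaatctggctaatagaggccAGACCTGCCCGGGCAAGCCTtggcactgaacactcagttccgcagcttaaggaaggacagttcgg
Bax: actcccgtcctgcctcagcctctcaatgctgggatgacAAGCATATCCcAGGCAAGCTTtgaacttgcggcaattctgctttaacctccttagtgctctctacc
Cdkn1a: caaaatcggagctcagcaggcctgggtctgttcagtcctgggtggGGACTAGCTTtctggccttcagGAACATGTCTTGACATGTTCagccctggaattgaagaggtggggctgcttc
Mdm2: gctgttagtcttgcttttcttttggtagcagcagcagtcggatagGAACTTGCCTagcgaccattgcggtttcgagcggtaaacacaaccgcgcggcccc
Trp53: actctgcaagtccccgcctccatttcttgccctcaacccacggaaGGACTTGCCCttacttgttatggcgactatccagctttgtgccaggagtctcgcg

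The Ccng1 stretch is chr11:40755417-40755526 on the minus strand, and its pair begins 195 bases before the gene start with no spacer. At Bax, chr7:45467045-45467148 on the minus strand, the pair begins 212 bases before the start with a spacer of 1 base. The Cdkn1a stretch, chr17:29090861-29090978 on the plus strand, lies at the upstream of its 2 RefSeq starts and holds 2 overlapping pairs. One joins the matches 73 and 51 bases before the start without mismatch across 12 bases, and the other is the unbroken run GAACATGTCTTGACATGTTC with 1 mismatch. The Mdm2 stretch is chr10:117710890-117710989 on the minus strand and the Trp53 stretch chr11:69580239-69580338 on the plus strand, each with a single match. The windows of Phlda3, Sesn2, Fas and Bbc3 held no half-site without mismatch, which says only that these letters are not in these windows. The sites through which p53 is known to act on Mdm2 lie in its first intron, outside the window.

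Trp53 itself did not change past the threshold in any comparison. Its level was 28.2 and 57.4 RPKM in fresh cells, 61.6 and 72.0 at 12 h, 54.3 at 24 h, 46.1 in the 48h-titled library and 11.9 and 67.8 in the organoids. The 12 h libraries were both above the fresh ones, while the organoid libraries were the lowest and the second highest of all 8. In the linear model of limma on log2(RPKM + 1), with Benjamini-Hochberg adjustment over all 12900 genes tested, the change was 0.71 (SE 0.78, adjusted p = 0.61) at 12 h and −0.47 (SE 0.78, adjusted p = 0.728) in organoids. Without organoid replicate 1, which held 665 Trp53 reads against 5544 in replicate 2, the organoid change was 0.74. On GRCm38 Trp53 lies at chr11:69580359-69591873, and its neighbour Wrap53 on the other strand stood between 0 and 17.2 RPKM in the 8 libraries. A processed copy, Trp53-ps, was at 0 to 0.369 RPKM.

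Mdm2, the ligase that degrades p53, was the steadiest of the 10 genes. It stood at 21.1 and 23.3 RPKM in fresh cells, 17.7 and 22.2 at 12 h, 18.4 at 24 h, 16.4 in the 48h-titled library and 18.6 and 29.1 in the organoids. All groups of 2 libraries overlapped with one another. The fitted change was −0.15 (SE 0.38, limma adjusted p = 0.831) at 12 h and 0.07 (SE 0.38, adjusted p = 0.927) in organoids. The sign of the organoid change turned after centring of the libraries on their medians (−0.08) and after quantile normalization (−0.14). Mdm2 lies at chr10:117688875-117710758.

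**Figure D1:**
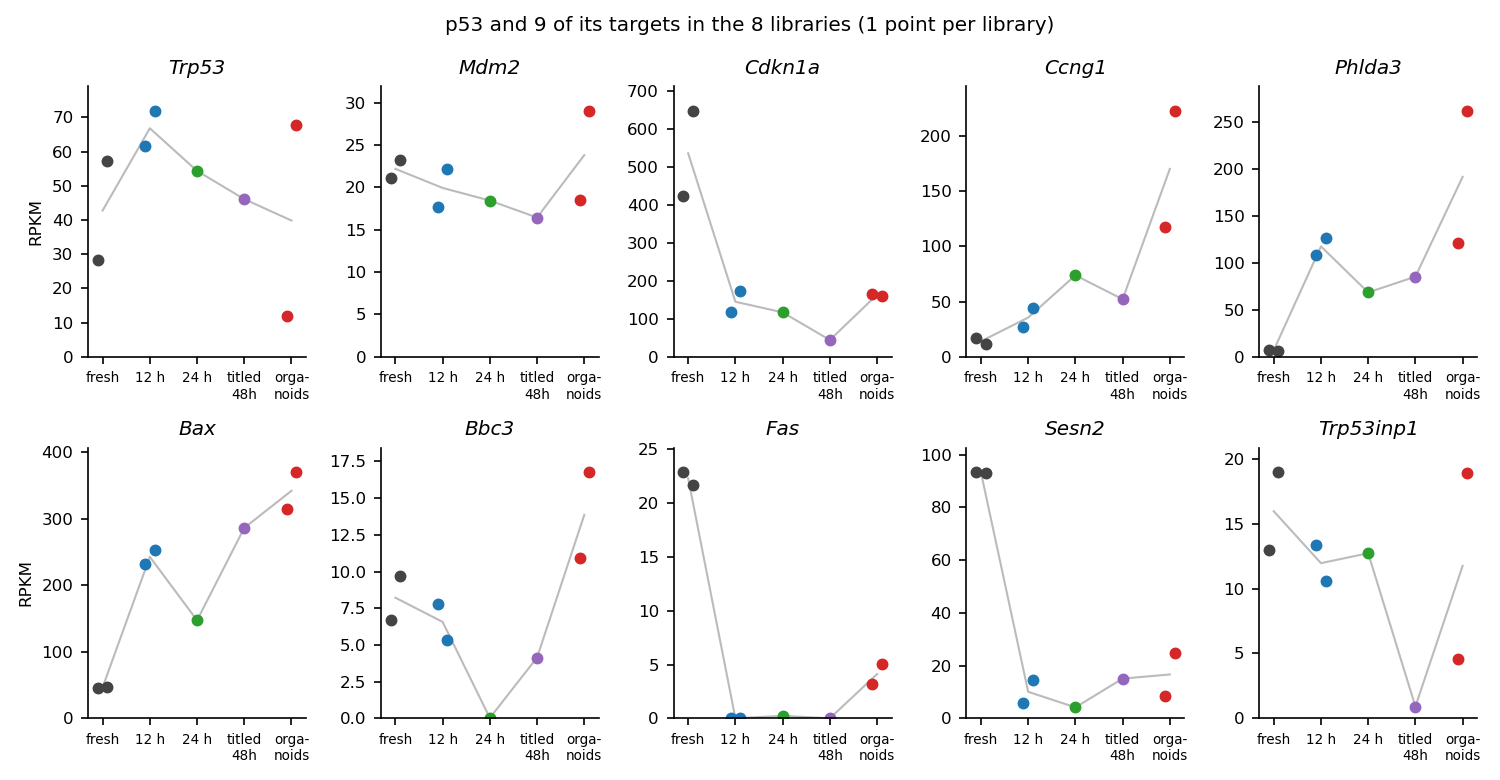
RPKM of each of the 10 genes (linear axis from 0) in the 8 libraries, 1 point per library, with a grey line through the group means. Cdkn1a, Sesn2 and Fas are highest in the fresh cells, Phlda3, Bax and Ccng1 are lowest there, and Trp53 and Mdm2 show no such split.

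At 12 h, 2 of the 10 genes had risen, Phlda3 and Bax, and 3 had fallen, Cdkn1a, Sesn2 and Fas, where 6.81% of all genes tested passed, 3.09% higher and 3.72% lower. The groups did not overlap for 7 of the 10, 4 higher and 3 lower, against 62.2% of all genes (38.6% higher and 23.6% lower). The median change of the 10 was −0.22, beside 0.24 for all genes. In organoids 3 had risen, with Ccng1 joining Phlda3 and Bax, and the 3 that were lower at 12 h were lower again, where 10.1% of all genes passed, 5.15% higher and 4.94% lower. There 7 did not overlap, 4 higher and 3 lower, against 64.7% of all genes (38.1% higher and 26.6% lower), and the median was −0.20 beside 0.17. Centring each library on its median removed the shift of all genes and changed the split of all calls from 398 higher and 480 lower to 300 and 839 at 12 h, and from 664 and 637 to 556 and 836 in organoids. Both comparisons use the same 2 fresh libraries, so they are not independent of each other. By limma no member passed at 12 h without fresh replicate 1 or fresh replicate 2 (5 at an unadjusted p under 0.05 each), 2 passed without 12 h replicate 1, Phlda3 and Fas, and 1 without 12 h replicate 2, Fas. In organoids 0 passed without either fresh library (6 at an unadjusted p under 0.05 each) and 2, Phlda3 and Bax, without organoid replicate 1. The shares of all genes moved as well, with 0 genes passing in either comparison without either fresh library. With no filter on low values, 3 passed in each comparison.

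Phlda3 encodes a small protein that competes with the kinase AKT for membrane lipids and so restrains survival signalling. It was at 7.36 and 6.67 RPKM in fresh cells, 109 and 126 at 12 h, 68.6 at 24 h, 85.4 in the 48h-titled library and 121 and 262 in the organoids. Every cultured library was thus far above both fresh ones, which held only 175 and 296 reads of the gene. The rise was 16.8-fold at 12 h, a log2 change of 3.88 (SE 0.43, limma adjusted p = 0.0189), and 27.3-fold in organoids, a log2 change of 4.48 (SE 0.43, adjusted p = 0.00664). Leaving out any 1 library kept these changes between 3.78 and 3.99 at 12 h and between 3.93 and 5.04 in organoids. Phlda3 lies at chr1:135766119-135769136, and among the 10 genes its level was the lowest of all in fresh cells and second only to Bax in organoids.

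Bax encodes the pore-forming protein that opens the outer mitochondrial membrane in apoptosis. It was at 46.2 and 47.0 RPKM in fresh cells, 232 and 254 at 12 h, 147 at 24 h, 286 in the 48h-titled library and 314 and 370.3 in the organoids. From 12 h on it had the highest level of the 10 genes in every group. The rise was 5.21-fold at 12 h (log2 change 2.35, SE 0.30, limma adjusted p = 0.0239) and 7.34-fold in organoids (2.84, SE 0.30, adjusted p = 0.00891). Between 12 h and organoids the libraries did not overlap either, but the change of 0.49 did not pass (SE 0.30, adjusted p = 0.428). Bax lies at chr7:45461697-45466898, and 12.2% of its exon bases are shared with Gm45808 on the same strand.

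Ccng1 encodes cyclin G1, which takes part in the feedback on p53 by guiding a phosphatase to Mdm2. It was at 16.7 and 11.4 RPKM in fresh cells, 27.4 and 43.8 at 12 h, 73.9 at 24 h, 52.2 in the 48h-titled library and 118 and 223 in the organoids. Its groups were ordered fresh, 12 h and organoids with no overlap between neighbours. The change was 1.27 at 12 h (SE 0.45, limma adjusted p = 0.135) and 3.46 in organoids (SE 0.45, adjusted p = 0.0122), or 12.1-fold. The difference between organoids and 12 h, 2.19, missed the threshold (SE 0.45, adjusted p = 0.0659) and passed after median centring (adjusted p = 0.0327). Ccng1 lies at chr11:40748552-40755311. Its reads, recovered from the RPKM values and not scaled to depth, were 894 and 1142 in fresh cells and 5710 and 15845 in organoids.

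On the falling arm, Cdkn1a encodes p21, the inhibitor of cyclin-dependent kinases through which p53 halts the cell cycle. It had the highest level of the 10 in fresh cells, at 423 and 648 RPKM, and stood at 118 and 172 at 12 h, 117 at 24 h, 44.3 in the 48h-titled library and 166 and 161 in the organoids. No cultured library reached the lower of the fresh values. The fall was 3.70-fold at 12 h (log2 change −1.87, SE 0.37, limma adjusted p = 0.0393) and 3.28-fold in organoids (−1.67, SE 0.37, adjusted p = 0.0401). Leaving out any of the 6 replicated libraries in turn ended the organoid call, with adjusted p from 0.0514 to 0.366 and changes from −1.98 to −1.37. Cdkn1a lies at chr17:29090976-29100727, and 7.68% of its exon bases overlap the antisense gene AC167363.2, whose reads cannot be told apart without strand.

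Sesn2 encodes a sestrin, a stress protein that restrains the growth kinase complex mTORC1. Its level was 93.4 and 93.1 RPKM in fresh cells, 5.69 and 14.4 at 12 h, 4.15 at 24 h, 15.1 in the 48h-titled library and 8.34 and 24.9 in the organoids. The fresh libraries agreed closely and lay well above the rest. The fall was 9.27-fold at 12 h (log2 change −3.21, SE 0.62, limma adjusted p = 0.0366). In organoids the log2 change was −2.60 (SE 0.62, adjusted p = 0.0466), which did not pass with a pseudocount of 0.1 (adjusted p = 0.0633). The 12 h change was −2.61 without 12 h replicate 1 (adjusted p = 0.0865) and −3.82 without 12 h replicate 2 (adjusted p = 0.0572). The organoid change was −1.86 without organoid replicate 1 (adjusted p = 0.138) and −3.33 without organoid replicate 2 (adjusted p = 0.0464). Sesn2 lies at chr4:132492032-132510501.

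Fas encodes the death receptor that triggers apoptosis when it meets its ligand. It was at 22.9 and 21.7 RPKM in fresh cells, listed at 0 in both 12 h libraries and in the 48h-titled library, at 0.231 in the 24 h library, and at 3.17 and 5.05 in the organoids. A count of 0 allows up to 3 reads, or 0.0695 and 0.0669 RPKM of Fas in the 12 h libraries, a limit that covers counting error only. The log2 change was −4.54 at 12 h (SE 0.43, limma adjusted p = 0.0189) and −2.21 in organoids (SE 0.43, adjusted p = 0.0288), a 5.43-fold fall. The organoid libraries were above those at 12 h, and that difference, 2.33, lay just outside the threshold (SE 0.43, adjusted p = 0.0536). It passed with a pseudocount of 0.1, after median centring and after quantile normalization, at adjusted p of 0.0296, 0.0289 and 0.0428. Fas lies at chr19:34290666-34327772.

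Of the 9 duct markers 0 passed at 12 h by limma (2 at an unadjusted p under 0.05). Their median change was −0.85, beside 0.24 for all genes. In organoids 2 were higher and 1 lower, where 5.15% and 4.94% of all genes were, with a median of −0.87 beside 0.17. Markers of other cell types also differed between fresh and cultured cells. Of the 10 hepatocyte markers 8 fell at 12 h and 9 in organoids, where 3.72% and 4.94% of all genes tested were lower. From 12 h to organoids the hepatocyte sum went from 455 and 459 to 17.1 and 56.1 RPKM. Apoe alone went from 392 and 394 to 0.744 and 5.53 RPKM. Between these groups 1 of the 10 markers was lower and 0 higher, where 0.620% of all genes were lower. Their median change was −0.12, beside −0.09 for all genes. The means of Cdkn1a, Sesn2 and Fas went from 145 to 164, from 10.1 to 16.6 and from 0 to 4.11 RPKM. Of 5 mesothelial markers 3 were tested, with 2 lower and 0 higher at 12 h and 2 lower and 1 higher in organoids. Gpm6a was at 16.6 and 28.7 RPKM in fresh cells and at 0 and 0.0138 at 12 h, whereas Msln was at 29.3 and 21.4 in fresh cells and 488 and 475 in organoids. The mesothelial sum was 54.7 and 56.8 RPKM in fresh cells, 37.9 and 48.6 at 12 h and 489 and 475 in organoids. Of 6 endothelial markers 1 was tested, Eng, which was lower at 12 h, at 1.89 and 1.94 RPKM in fresh cells and 0 in both 12 h libraries. Of 7 mesenchymal and stellate markers 2 were tested, and 0 passed at 12 h by limma (2 at an unadjusted p under 0.05). Their list summed to 13.5 and 4.11 RPKM in fresh cells and 2.32 and 0.0996 at 12 h.

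Of the immune markers 3 were tested, with 1 lower at 12 h, 2 lower at 24 h and 0 passing in organoids by limma (1 at an unadjusted p under 0.05). Of all genes tested, 3.72%, 6.66% and 4.94% were lower in these comparisons. Csf1r, a macrophage receptor, was at 5.21 and 10.9 RPKM in fresh cells, 0.0977 and 0.443 at 12 h and 1.92 and 1.79 in organoids. Cd68 was at 21.7 and 7.57 in fresh cells, 8.24 and 9.30 at 12 h and 22.1 and 7.004 in organoids. Cd3e was at 0 in every library and Ptprc, the pan-leukocyte marker, at 0.0143 and 0 in fresh cells. The part of RNA from other cell types in the levels of Cdkn1a, Sesn2 and Fas was not tested.

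Trp53inp1 and Bbc3 stayed below the threshold in the 3 replicated comparisons. Trp53inp1 encodes a stress-induced nuclear protein that acts with p53 in cell death and autophagy. It stood at 12.9 and 19.0 RPKM in fresh cells, 13.3 and 10.6 at 12 h, 12.7 at 24 h, 0.910 in the 48h-titled library and 4.60 and 18.9 in the organoids. The 48h-titled library, with 129 reads, was the lowest by far, and its change from fresh cells, −3.13, missed the threshold (SE 0.79, limma adjusted p = 0.0841). After median centring and quantile normalization it passed (adjusted p = 0.0399 and 0.0311). Bbc3 encodes PUMA, a protein of the Bcl2 family that sets off apoptosis upstream of Bax. It stood at 6.73 and 9.71 RPKM in fresh cells, 7.82 and 5.32 at 12 h, 0.0259 at 24 h, 4.14 in the 48h-titled library and 10.9 and 16.8 in the organoids. Both organoid libraries were above all others, yet the change of 0.68 did not pass (SE 0.47, adjusted p = 0.379). The value at 24 h stands for about 1 read. Trp53inp1 lies at chr4:11156431-11174379 and Bbc3 at chr7:16308393-16318205.

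**Figure D2:**
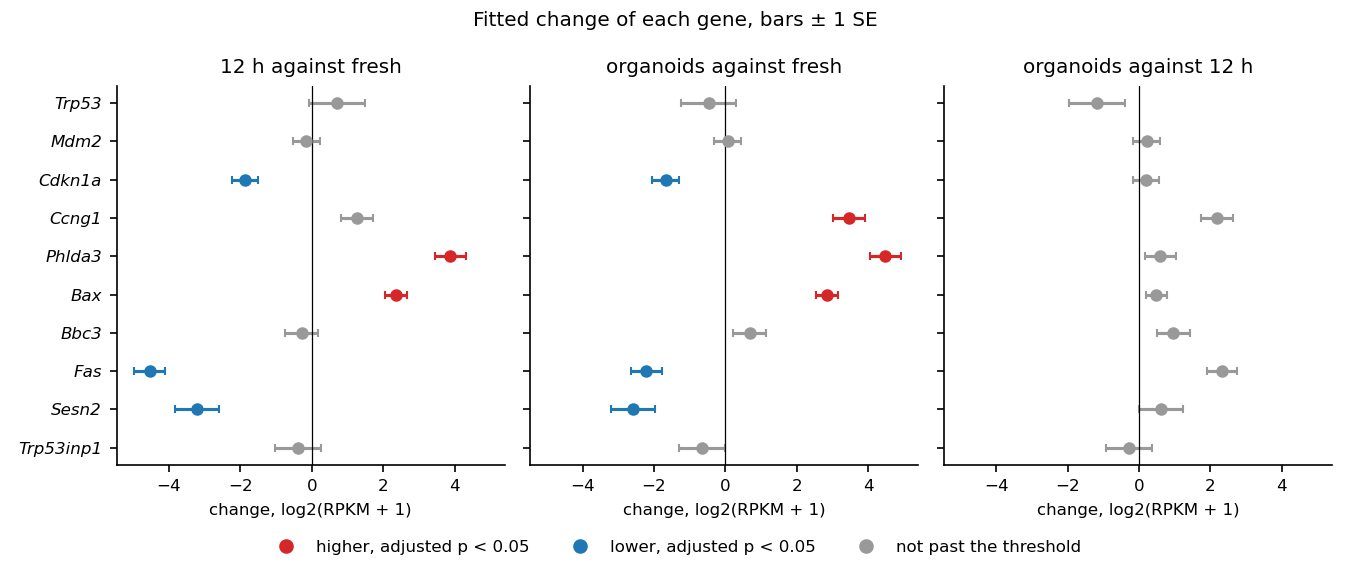
Fitted log2(RPKM + 1) change of each of the 10 genes, with bars of ± 1 SE, for 12 h against fresh cells, organoids against fresh cells and organoids against 12 h (n = 2 libraries in each group). Red and blue points passed an adjusted p of 0.05, and none does so between organoids and 12 h.

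From 12 h to organoids 0 of the 10 genes passed by limma, 2 of them, Ccng1 and Fas, at an unadjusted p under 0.05, where 2.0% of all genes passed, 1.38% higher and 0.620% lower. With a pseudocount of 0.1, quantile normalization or variances without a trend 1 passed, and with median centring 2. The groups did not overlap for 4 genes, all higher in organoids, namely Ccng1, Bax, Fas and Bbc3, against 44.9% of all genes (20.8% higher and 24.1% lower). The median change of the 10 was 0.54, beside −0.09 for all genes, and 8 of the 10 changes were above 0. The organoid libraries differed between themselves in these genes and over all genes. Organoid replicate 1 had the fewest reads of all libraries, 13833143, and a summed RPKM of 446034, against 357129 to 369701 in the others. Replicate 2 was higher than replicate 1 for 9 of the 10, with a median log2 difference of 0.77, against 68.0% of all genes tested and a median of 0.38. Cdkn1a alone was marginally lower in replicate 2.

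The 24 h library and the 48h-titled library were single libraries, tested against fresh cells on the assumption that they vary like the replicated groups. A difference of the time point and a deviation of the single library cannot be told apart. At 24 h 7 of the 10 passed, Phlda3, Bax and Ccng1 higher and Cdkn1a, Sesn2, Fas and Bbc3 lower, where 10.9% of all genes passed, 4.26% higher and 6.66% lower. The library lay outside both fresh ones for 9 of the 10, as did 91.3% of all genes (44.0% higher and 47.4% lower). Its changes were 3.12 for Phlda3 (SE 0.53, limma adjusted p = 0.0241) and 2.34 for Ccng1 (SE 0.55, adjusted p = 0.0459), and −4.19 for Sesn2 (SE 0.76, adjusted p = 0.0275). Bbc3, at −3.15 (SE 0.57, adjusted p = 0.0277), passed only in this comparison, on about 1 read at 24 h. Since this library had the fewest genes detected, the part of a lower capture of molecules in its low values was not tested. With no filter on low values 2 of the 10 passed. In the 48h-titled library, 4 of the 10 passed, Phlda3 and Bax higher and Cdkn1a and Fas lower, where 3.31% of all genes passed, 1.84% higher and 1.47% lower. Again 9 of the 10 lay outside both fresh libraries, as did 88.5% of all genes (55.1% higher and 33.4% lower). Cdkn1a reached its lowest level there, 12.1-fold under fresh cells (log2 change −3.54, SE 0.46, adjusted p = 0.0302). Without fresh replicate 1 or fresh replicate 2, 0 of the 10 passed in either library.

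Among the proteins that act on p53, 22 were listed and 18 tested, with 0 higher and 1 lower at 12 h and 1 higher and 1 lower in organoids. Of all genes tested, 3.09% were higher and 3.72% lower at 12 h, and 5.15% and 4.94% in organoids. The same shares apply to the counts of the lists that follow. Chek2, a kinase that stabilises p53 after DNA breaks, was at 0.459 and 0.328 RPKM in fresh cells, 3.67 and 1.67 at 12 h, 0 at 24 h, 7.78 in the 48h-titled library and 13.4 and 9.72 in organoids. Its organoid change was 3.16 (limma adjusted p = 0.0163). Ppp1r13b encodes ASPP1, which steers p53 towards genes of apoptosis. It fell from 66.7 and 66.2 RPKM in fresh cells to 21.7 and 16.1 at 12 h and 9.13 and 11.02 in organoids, a change of −1.77 (adjusted p = 0.0373) and of −2.61 (adjusted p = 0.0125). The median change of the 18 was 0.01 at 12 h and 0.07 in organoids, beside 0.24 and 0.17 for all genes.

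Of 11 further arrest and feedback genes 9 were tested, with 0 higher and 1 lower at 12 h and 2 higher and 0 lower in organoids. Btg2, an antiproliferative gene, was at 169.5 and 179.9 RPKM in fresh cells and 21.5 and 27.4 at 12 h, a change of −2.80 (limma adjusted p = 0.0265). It stood at 38.6 and 77.6 in organoids, where the change of −1.65 did not pass (adjusted p = 0.0535). Zmat3, an RNA-binding protein induced by p53, rose from 0.975 and 0.621 RPKM to 6.98 and 11.9 in organoids (2.51, adjusted p = 0.0263). Gtse1, which carries p53 out of the nucleus in cycling cells, rose from 0.169 and 0.129 to 6.75 and 40.1 RPKM there (3.96, adjusted p = 0.0296), with a wide gap between the replicates.

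Of 11 further death genes, all tested, 0 passed at 12 h by limma (3 at an unadjusted p under 0.05) and 1 rose in organoids. This was Siva1, which promotes apoptosis, at 17.4 and 9.52 RPKM in fresh cells, 39.9 and 42.8 at 12 h, 68.7 at 24 h, 180.01 in the 48h-titled library and 129.5 and 162 in organoids. Its organoid change was 3.39 (adjusted p = 0.00942). Of 7 repair genes 6 were tested, with 1 higher at 12 h and 0 passing in organoids by limma (1 at an unadjusted p under 0.05). All 6 changes were above 0 in both comparisons, with medians of 1.04 and 0.72, beside 0.24 and 0.17 for all genes. At 24 h only 1 of the 6 was above 0, with a median of −1.27, beside −0.07 for all genes. From 12 h to organoids 3 of the 6 were above 0, with a median of −0.28, beside −0.09. Polh, a polymerase that copies past damaged bases, was at 1.15 and 1.56 RPKM in fresh cells and 10.9 and 9.03 at 12 h (2.22, adjusted p = 0.0373), but at 0.101 at 24 h.

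Of 12 metabolic and stress targets 11 were tested, with 1 higher and 0 lower at 12 h and 1 higher and 1 lower in organoids. Ei24, a membrane protein with a role in autophagy, rose from 22.7 and 17.8 RPKM to 83.7 and 66.7 at 12 h (1.84, limma adjusted p = 0.0404) and 54.8 and 87.3 in organoids (1.74, adjusted p = 0.0363). Gdf15, a secreted stress cytokine, was at 132 and 123 RPKM in fresh cells and 23.0 and 22.6 at 12 h (−2.43, adjusted p = 0.069). It was at 0.112 at 24 h, 2.79 in the 48h-titled library and 3.63 and 17.2 in organoids, where it passed (−3.81, adjusted p = 0.0205).

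**Figure D3:**
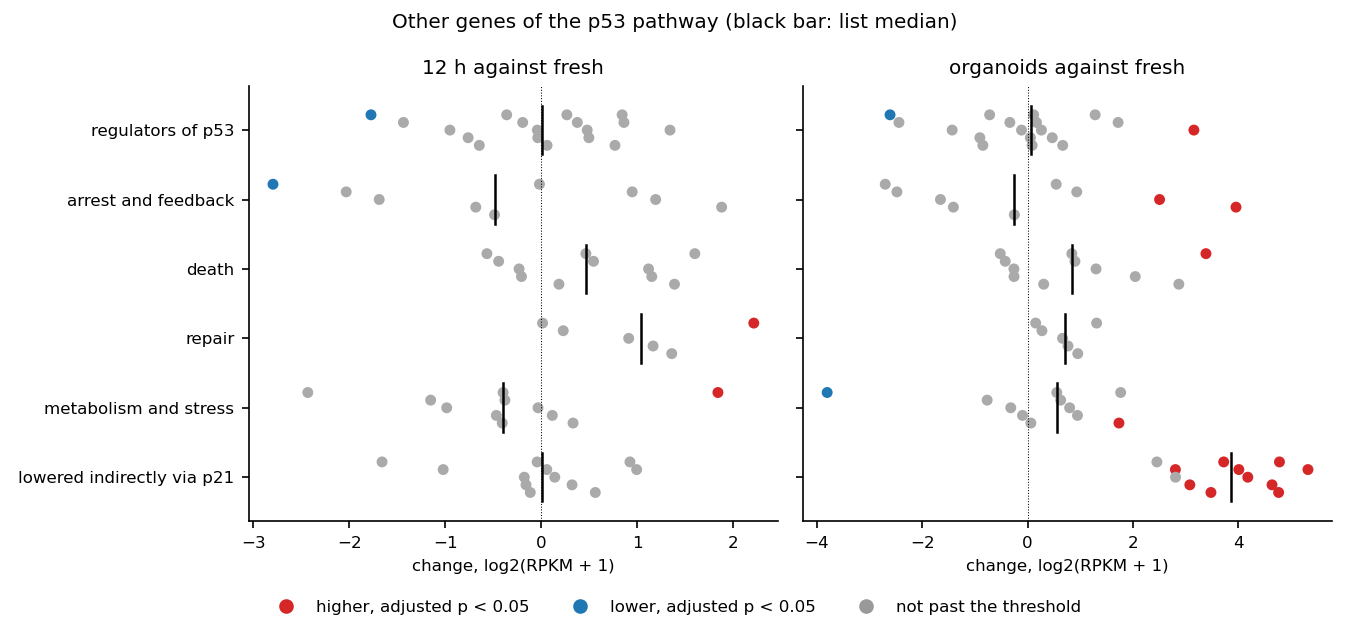
Fitted log2(RPKM + 1) change of the other genes of the pathway that were tested, 1 point per gene, by list, at 12 h and in organoids against fresh cells (n = 2 libraries in each group). Black bars are list medians, and in organoids the list of cell cycle genes stands at 3.87, far to the right of the others.

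Through p21, p53 is known to lower a set of cell cycle genes indirectly, and 12 of these were listed and tested. At 12 h 0 of the 12 passed by limma (2 at an unadjusted p under 0.05), with a median change of 0.01. Their median level was only 0.414 and 0.809 RPKM in fresh cells, where a fall hardly registers on the log2(RPKM + 1) scale. In organoids 10 rose and 0 fell, where 5.15% of all genes were higher and 4.94% lower. The median change was 3.87, beside 0.17 for all genes, and the 2 genes that did not pass were also above 0. Cdk1, the kinase of mitotic entry, was at 1.16 and 1.27 RPKM in fresh cells, 4.12 and 2.47 at 12 h, 11.005 at 24 h, 131 in the 48h-titled library and 48.2 and 73.1 in organoids. The organoid change was 4.77 (adjusted p = 0.00619). Plk1, a mitotic kinase, stood at 0.0217 and 0.0209 RPKM at 12 h and at 15.4 and 59.0 in organoids (4.94, adjusted p = 0.0294 against 12 h). Cdc20 and Ccnb2 rose against 12 h as well, by 5.67 and 5.18 (adjusted p = 0.0211 and 0.0371).

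The median level of the 12 genes was 0.414 and 0.809 RPKM in fresh cells, 0.0316 and 0.0853 at 12 h, 0.0665 at 24 h, 59.7 in the 48h-titled library and 15.1 and 37.3 in organoids. The library with the least Cdkn1a, titled 48h, had the highest median. Organoids and 12 h libraries overlapped in Cdkn1a, at 161 and 166 against 118 and 172 RPKM, and their medians lay far apart. The fresh libraries had the most Cdkn1a and intermediate medians. A link between the level of Cdkn1a and that of these genes was not tested.

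**Figure D4:**
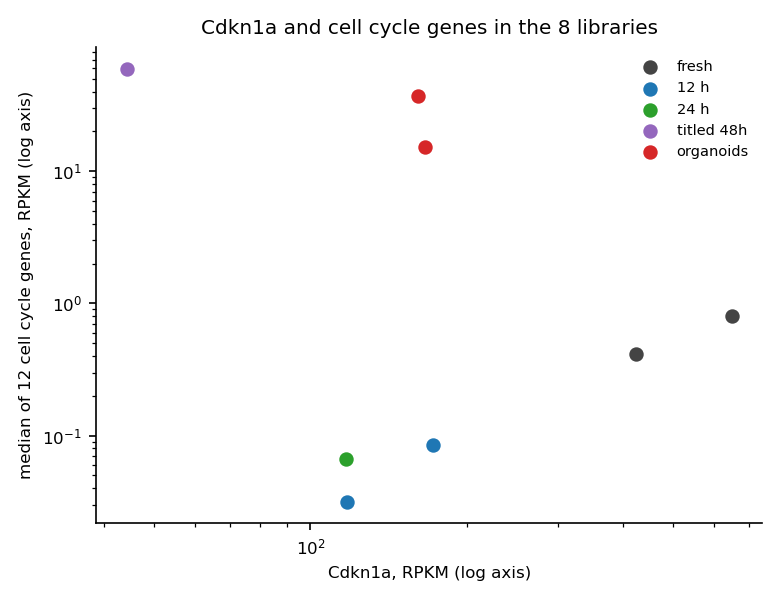
Cdkn1a level (x) against the median level of 12 cell cycle genes (y), both in RPKM on log axes, 1 point per library. The 12 h, 24 h and organoid libraries share a narrow range of Cdkn1a, from 117 to 172 RPKM, and differ in the median from 0.0316 to 37.3 RPKM.

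The genes most like each of 5 members were sought among 6914 genes by Pearson correlation of log2(RPKM + 1) over the 8 libraries. These libraries fall into 5 groups, so high values are common and are given as a description only. Phlda3 was followed most closely by Rnf187 (r = 0.987), then by Bax itself (0.979) and B4galt7 (0.976). Cdkn1a was most like the immediate early gene Nr4a1 (0.947), Zfp948 (0.947) and Btg2 (0.941). Nr4a1 stood at 97.0 and 109 RPKM in fresh cells and at 3.43 to 19.2 in the cultured libraries. Trp53 was nearest to Lrrc8a (0.970), Fam168b (0.969) and Aco1 (0.969), and all 3 shared its low value in organoid replicate 1. Fas was nearest to Ctsf (0.966), a lysosomal protease at 16.7 and 18.8 RPKM in fresh cells, at most 0.0483 from 12 h to the 48h-titled library, and 8.89 and 6.16 in organoids. H3f3b (0.949) and Thbs1 (0.946) came next for Fas, and Klhl9 (0.949), Arhgef3 (0.887) and Ppp4c (0.867) for Mdm2.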

How the data were processed

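Full-length cDNA was made by Smart-seq2 and tagmented with Nextera XT, per the labels' protocols. The authors deposited 1 table of RPKM values for 47729 Ensembl genes with replicates in separate columns. Genome build GRCm38 and edgeR are named in the submitters' processing notes; the aligner, read counter, annotation release, strandedness and any scaling factor are steps not given in the sources used here. Symbols matched 47224 identifiers, and positions came from GENCODE M21 on GRCm38. Reads per library were recovered from the step between low values, of which 88.2% to 91.1% were whole multiples within 0.01.

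Values were taken as log2(RPKM + 1). The 12900 genes that reached 1 RPKM in 2 or more libraries were fitted together over the 8 libraries with 1 coefficient per group (limma 3.58.1 in R 4.3.3, eBayes with trend, 3 residual degrees of freedom), a two-sided test adjusted by Benjamini-Hochberg at 0.05. The procedure was tested on simulated data for 12 h against fresh cells. It called none of the genes changed 4-fold there and most of those changed 16-fold, the latter along with some unchanged genes. Each simulated table changed only 200 genes, whereas 878 passed in the data. The adjustment is stricter when fewer genes change, so these outcomes do not give the power here. Cdkn1a, 3.70-fold lower at 12 h, did pass. A gene that did not pass may still have changed. Folds are ratios of mean RPKM, and changes on the log2(RPKM + 1) scale understate those of low genes. Alternatives changed the pseudocount, filter, scaling, samples, variance model and replicate block.

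The 10 genes and the 6 lists of pathway genes were chosen with earlier results of these data known. Named from each list were up to 4 genes that passed in a replicated comparison, by size of change, and like genes were the 3 highest correlations among genes that averaged 5 RPKM or more. Promoter sequences are from RefSeq, build GRCm38.p6.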

Additional observations from a re-analysis of the deposited data

How the results depend on the processing

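With 2 libraries per group, the calls rest on both fresh libraries. The number of the 10 genes called, 5 at 12 h, 6 in organoids, 7 at 24 h and 4 in the 48h-titled library, ranged from 0 to 5, 0 to 5, 0 to 7 and 0 to 5 when 1 replicated library was left out, and the lone library left in a group was assumed to vary like the others. Between organoids and 12 h it stayed at 0. With no filter on low values 3 were called at 12 h, 3 in organoids and 2 at 24 h. Between organoids and 12 h, 1 was called with a pseudocount of 0.1, 2 with median centring, 1 with quantile normalization and 1 without a variance trend. Leaving out the 24 h library or the 48h-titled library, a choice made after seeing the data, gave 5 and 6 at 12 h and in organoids. Over single genes and settings other than left-out libraries, 472 results kept direction and call, 25 lost the call, 8 gained it and 5 changed sign. The sign changes were Mdm2 in organoids (−0.079 with median centring, −0.14 with quantile normalization), Trp53 in the 48h-titled library (−0.20 and −0.23) and Trp53inp1 at 24 h (0.058 with the replicate block), none of them called. Leaving out 1 library changed a further 13 signs, none called, all of Trp53 (ranges −1.68 to 0.74 in organoids, −2.39 to 0.025 between organoids and 12 h, −0.077 to 0.92 at 24 h, −0.31 to 0.69 in the 48h-titled library), Mdm2 (−0.31 to 0.0020 at 12 h, −0.24 to 0.38 in organoids, −0.090 to 0.53 between them), Trp53inp1 (−1.58 to 0.25 in organoids, −1.20 to 0.63 against 12 h), Cdkn1a (−0.076 to 0.47) and Sesn2 (−0.12 to 1.35), the last 2 between organoids and 12 h. Over all genes, the calls at 12 h went from 878 to 423 with no filter, 1790 with only the groups compared and 545 without a trend, and those in organoids from 1301 to 740 and 2044 with no filter and with only the groups compared. Between organoids and 12 h, 258 became 0 (3379 at an unadjusted p under 0.05) and 14 under these settings. With 1 replicated library left out, the limma calls over all genes ranged from 0 to 1176 at 12 h (88 without 12 h replicate 2), 0 to 1646 in organoids (100 without organoid replicate 1), 0 to 193 between them, 0 to 2481 at 24 h and 0 to 666 in the 48h-titled library, each at 0 without either fresh library. Nothing in the labels says that replicate numbers pair the libraries. The differences between replicates 1 and 2 correlated by 0.19 between fresh and 12 h, 0.22 between fresh and organoids and 0.02 between 12 h and organoids. With the replicate block 5, 6, 0, 6 and 4 of the 10 genes were called in the 5 comparisons, taken as 12 h, organoids against fresh, organoids against 12 h, 24 h and 48h-titled, and Bax at 24 h lost its call (adjusted p = 0.0537).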
